A study of Mus musculus with 18 samples.

Results

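Genes of the BMP and TGF-beta signalling pathway were compared among the rostral, middle and caudal parts of the embryonic mouse neocortex. Members were the genes whose platform symbol names a bone morphogenetic protein, a growth differentiation factor, a TGF-beta, an inhibin or activin subunit, a receptor of these ligands, a SMAD, or one of the secreted or membrane antagonists Nog, Chrd, Grem1, Fst, the follistatin-like genes and Bambi. The rule found 51 genes on 56 probes, and each gene was represented by the probe with values on the most arrays. Of these, 44 could be tested, among 18525 features tested in all, and 37 had values on all 18 arrays. The rule reads symbols and the number of values on a probe, not the differences.

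The tissue was neocortex of MF1 mice, an outbred strain, at E13.5, in the middle of neuron production, with no treatment or genetic change given in the labels. There were 3 pools each of rostral, middle and caudal neocortex, 9 in all, taken from 4 embryos. How embryos were divided among pools is not stated, so that pools may share embryos and p-values measure only the spread between these pools. Total RNA of each pool was hybridised on 4 arrays with 2 dyes, 2 arrays per dye, always against a pool of another region with another number, which gave 6 arrays for each pair of regions.

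In this pathway, secreted dimeric ligands bind paired type I and type II receptor kinases on the cell surface. The type I receptor then phosphorylates receptor-activated SMADs, which join SMAD4 and enter the nucleus. BMP ligands activate mainly SMAD1, SMAD5 and SMAD9, whereas TGF-betas and activins activate mainly SMAD2 and SMAD3. In the embryonic forebrain, the dorsal midline and its cortical hem are known as sources of BMPs, and the meninges are a source of several ligands as well. The comparison asks whether transcripts of the pathway differ along the rostral to caudal axis of the cortex.

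All values below are on a log2 scale. A pool value is the gene's level in that pool relative to the mean of the 9 pools. The 9 pool values were estimated jointly from all arrays with a value for the gene. A difference is the first region minus the second. The table holds ratios without intensities, so levels cannot be compared between genes, and a transcript near background cannot be told apart from one that does not differ. Likewise, fewer cells of a type and less RNA per cell cannot be told apart, and the markers of neocortex cannot be checked for presence. Arrays held between 18085 and 20693 values, and between 44 and 50 of the 51 members had one. Ratios were read as Cy5 over Cy3, which is likely but not stated. With this reading Nr2f1, a transcription factor known for low rostral and high caudal expression, had on the first of its 2 probes pool values of -0.51, -0.46 and -0.69 in rostral pools and 0.45, 0.45 and 0.51 in caudal pools. Its difference was -1.02 ± 0.07 (SE; limma, adjusted p = 0.0138 over all features), and on its other probe it was -1.02 ± 0.17 (adjusted p = 0.15). If the ratios ran the other way, every sign below would turn.

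No member passed the test in any comparison. After Benjamini-Hochberg adjustment over all features, 0 of 44 members had an adjusted p under 0.05 in rostral against caudal, where 0.0648% of all features did. The count was also 0 in rostral against middle and in middle against caudal, where 0% of all features passed, and 0 in the test for any difference among the regions, where 0.0108% passed. The lowest adjusted p among the members was 0.437 in rostral against caudal, 0.938 in rostral against middle and 0.641 in middle against caudal. The members' median difference was -0.02 in rostral against caudal, 0.01 in rostral against middle and -0.03 in middle against caudal, beside a median of 0.00 over all features in each.

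The precision of the design bounds what this leaves, for the probe ratios only. A transcript near background cannot be told apart from one that does not differ, so a narrow interval does not show an even level. The 95% interval of the difference lay within 1.5-fold either way for 33 of 44 members (75%) in rostral against caudal, against 62.9% of all features. The same held for 31 members (70.5%) in rostral against middle, against 64% of features, and for 32 (72.7%) in middle against caudal, against 63.7%. A difference of 2-fold lay outside the interval of 40, 41 and 41 members in these comparisons, against 78.6%, 79.5% and 78.8% of all features. The fitted difference exceeded 1.5-fold only for Gdf6 and Bmp2k, both in rostral against caudal and both with intervals that include 0. The median SD between pools of a region was 0.10 for the members and 0.15 for all features.

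**Figure D1:**
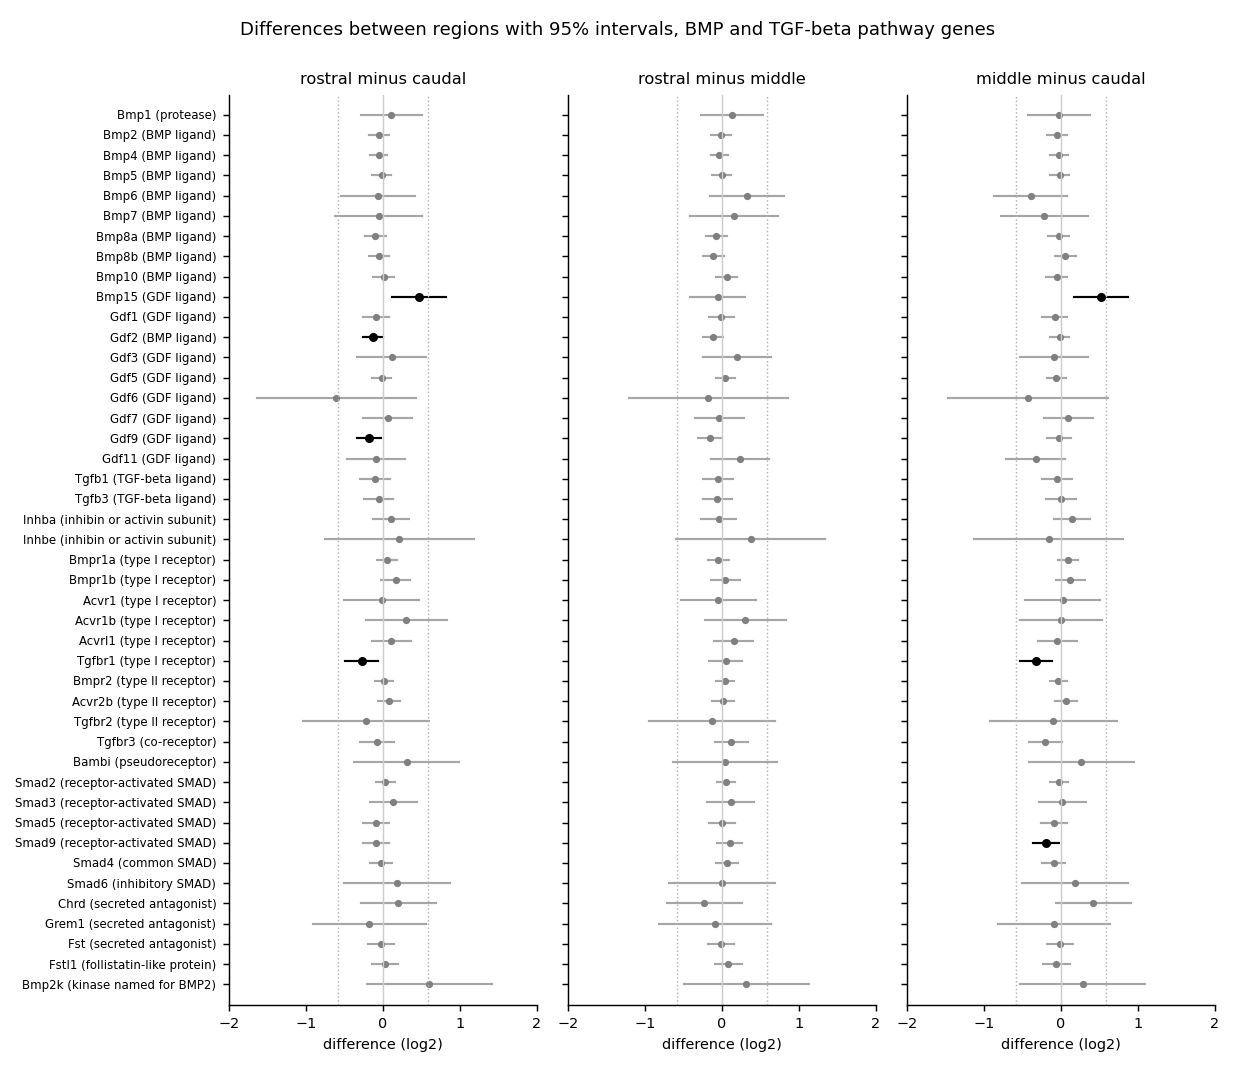
Differences between regions (x axis, log2) for the 44 tested members (rows, with role), with rostral minus caudal on the left, rostral minus middle in the centre and middle minus caudal on the right. Points are fitted differences, bars their 95% intervals, dotted lines mark 1.5-fold, and black marks an unadjusted p under 0.05, which was reached by Bmp15, Gdf2, Gdf9 and Tgfbr1 on the left, by none in the centre, and by Bmp15, Tgfbr1 and Smad9 on the right.

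Before adjustment, single members did stand out at about the rate of all features. In rostral against caudal, 1 member had an unadjusted p under 0.05 and was higher (Bmp15), against 4.17% of features, and 3 were lower (Gdf2, Gdf9 and Tgfbr1), against 3.74% of features. In rostral against middle there was none in either direction, against 2.16% of features higher and 3.09% lower. In middle against caudal, Bmp15 was higher, against 3.08% of features, and Tgfbr1 and Smad9 were lower, against 1.78%. The test for any region difference gave an unadjusted p under 0.05 for 2 members (4.55%), Bmp15 and Tgfbr1, against 6.71% of features. Pools of the 2 regions did not overlap for 5 members in rostral against caudal (11.4%, against 12.1% of features), for 8 in rostral against middle (18.2%, against 12.8%) and for 5 in middle against caudal (11.4%, against 10.6%). An exact permutation test of 3 pools against 3 cannot give a p below 0.1.

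The proximal promoters of the 3 members with the lowest unadjusted p that have one in the table are shown, because these genes carry the differences described next. Each is the 250 bases before the first transcription start that RefSeq lists (GRCm38.p6), written 5′ to 3′ in the direction of the gene. Capitals mark GGCGCC, a GC-rich element known from BMP-responsive genes. CAGAC and its complement GTCTG, the SMAD box, were searched as well on both strands and are in none of these windows. Bmp15 is at chrX:6320725-6320974 (minus strand), Tgfbr1 at chr4:47352972-47353221 (plus strand) and Smad9 at chr3:54755332-54755581 (plus strand).
Bmp15: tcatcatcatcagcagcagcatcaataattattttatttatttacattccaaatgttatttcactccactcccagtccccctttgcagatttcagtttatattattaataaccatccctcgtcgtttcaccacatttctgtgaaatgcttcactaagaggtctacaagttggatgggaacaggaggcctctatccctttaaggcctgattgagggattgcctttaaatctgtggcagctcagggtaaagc
Tgfbr1: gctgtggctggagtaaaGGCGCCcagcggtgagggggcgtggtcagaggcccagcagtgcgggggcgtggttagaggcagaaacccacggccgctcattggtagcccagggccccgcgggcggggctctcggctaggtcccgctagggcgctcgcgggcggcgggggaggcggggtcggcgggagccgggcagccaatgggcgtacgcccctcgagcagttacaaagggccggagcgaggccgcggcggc
Smad9: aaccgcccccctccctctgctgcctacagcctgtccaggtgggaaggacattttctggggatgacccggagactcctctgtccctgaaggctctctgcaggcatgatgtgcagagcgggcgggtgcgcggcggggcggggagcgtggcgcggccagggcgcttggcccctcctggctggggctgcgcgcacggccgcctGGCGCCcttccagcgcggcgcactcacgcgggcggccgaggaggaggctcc
The Bmp15 window holds neither motif and has 40.4% G and C, whereas those of Tgfbr1 and Smad9 each hold GGCGCC 1 time and have 74.8% and 73.2% G and C. Over the 36 members matched to the table, 8 (22.2%) held GGCGCC and 15 (41.7%) held a SMAD box. Over all 27025 genes of the table the shares were 9.54% and 42.1%. Mean G and C content was 64.8% for the members and 53% for all genes, and a match here is a description of letters, not of a bound site.

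Among the ligands, Bmp15 had the largest separation of caudal pools. Bmp15 is a growth factor known mainly from the oocyte, where it acts with its paralogue Gdf9. Probe sequences were not available, so whether the Bmp15 probe also measures other transcripts could not be checked. Its pool values were 0.00, 0.14 and 0.28 in rostral pools, 0.19, 0.22 and 0.16 in middle pools, and -0.05, -0.28 and -0.66 in caudal pools. All 6 rostral and middle pools lay above the 3 caudal pools, and the caudal pools differed most among themselves. The difference was 0.47 ± 0.15 in rostral against caudal (SE, unadjusted p = 0.0168, adjusted p = 0.437, 1.38-fold) and 0.52 ± 0.15 in middle against caudal (unadjusted p = 0.0102, adjusted p = 0.689, 1.44-fold). Rostral and middle pools overlapped, with a difference of -0.05 ± 0.15.

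Single arrays gave the same sign throughout for Bmp15. The 6 arrays that carried a rostral and a caudal pool gave ratios between 0.17 and 0.93 once the gene's dye coefficient was removed, and the 6 that carried a middle and a caudal pool gave 0.25 to 0.83. All 12 were above 0, with caudal RNA in either dye. Without caudal replicate 3, its lowest pool, the differences were 0.29 in rostral against caudal (unadjusted p = 0.037) and 0.37 in middle against caudal (unadjusted p = 0.0153). Without centring of the arrays they were 0.39 and 0.35, with unadjusted p = 0.0931 and 0.132.

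Gdf9, the paralogue of Bmp15, went the other way. It had -0.11, -0.10 and -0.12 in rostral pools, 0.01, 0.07 and 0.06 in middle pools, and -0.05, 0.05 and 0.20 in caudal pools. All 3 rostral pools lay below every other pool. The difference was -0.18 ± 0.07 in rostral against caudal (unadjusted p = 0.0324, adjusted p = 0.547, 1.13-fold) and -0.16 ± 0.07 in rostral against middle (unadjusted p = 0.0521, adjusted p = 0.938). All 6 arrays of rostral against caudal gave ratios below 0, between -0.31 and -0.09. The unadjusted p was over 0.05 in 7 of 37 alternatives, among them the fits without any 1 of the rostral pools, without caudal replicate 2, and without caudal replicate 3, where the difference was -0.11 (unadjusted p = 0.102).

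Gdf2, also named BMP9, is a liver-derived ligand that acts on endothelial cells through the receptor Acvrl1. It had -0.03, -0.09 and -0.12 in rostral pools, 0.02, 0.05 and 0.03 in middle pools, and -0.02, 0.04 and 0.12 in caudal pools. The rostral pools were again the lowest 3. Its difference was -0.13 ± 0.05 in rostral against caudal (unadjusted p = 0.048, adjusted p = 0.624, 1.09-fold), and its unadjusted p was over 0.05 in 19 of 37 alternatives. Its receptor Acvrl1, a type I receptor of endothelium, had a difference of 0.11 ± 0.11 and overlapping pools.

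The other BMP ligands were flat or scattered. Over the 9 BMP ligands, 8 had a difference below 0 in rostral against caudal and 8 in middle against caudal, but the medians were -0.05 and -0.03. Bmp4, a ligand known from the dorsal midline, had 0.02, -0.07 and -0.04 in rostral pools, 0.01, -0.03 and 0.03 in middle pools, and -0.01, 0.05 and 0.04 in caudal pools. Its difference in rostral against caudal was -0.06 ± 0.05, with a 95% interval from -0.17 to 0.06, and its range over the 9 pools was the smallest of the 44 members, at 0.12. Bmp2, Bmp5, Bmp8a, Bmp8b and Bmp10 had differences in rostral against caudal between -0.10 (Bmp8a) and 0.01 (Bmp10). Bmp8a and Bmp8b are near-identical neighbours whose probes may share signal.

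Pools of all regions overlapped for Bmp6 and Bmp7. Bmp7 had 0.12, 0.05 and -0.06 in rostral pools, -0.58, 0.16 and 0.05 in middle pools, and -0.05, -0.20 and 0.51 in caudal pools. Bmp6 had 0.14, -0.06 and 0.19 in rostral pools, -0.69, 0.06 and -0.09 in middle pools, and 0.17, 0.35 and -0.06 in caudal pools. Middle replicate 1 was the lowest pool of both genes, of Gdf6 at -0.74, and of Smad4 and Smad5. It was the lowest pool for 5 members (11.4%), against 9.28% of all features. The difference in middle against caudal was -0.39 ± 0.20 for Bmp6 (unadjusted p = 0.0947) and -0.21 ± 0.24 for Bmp7 (unadjusted p = 0.408).

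**Figure D2:**
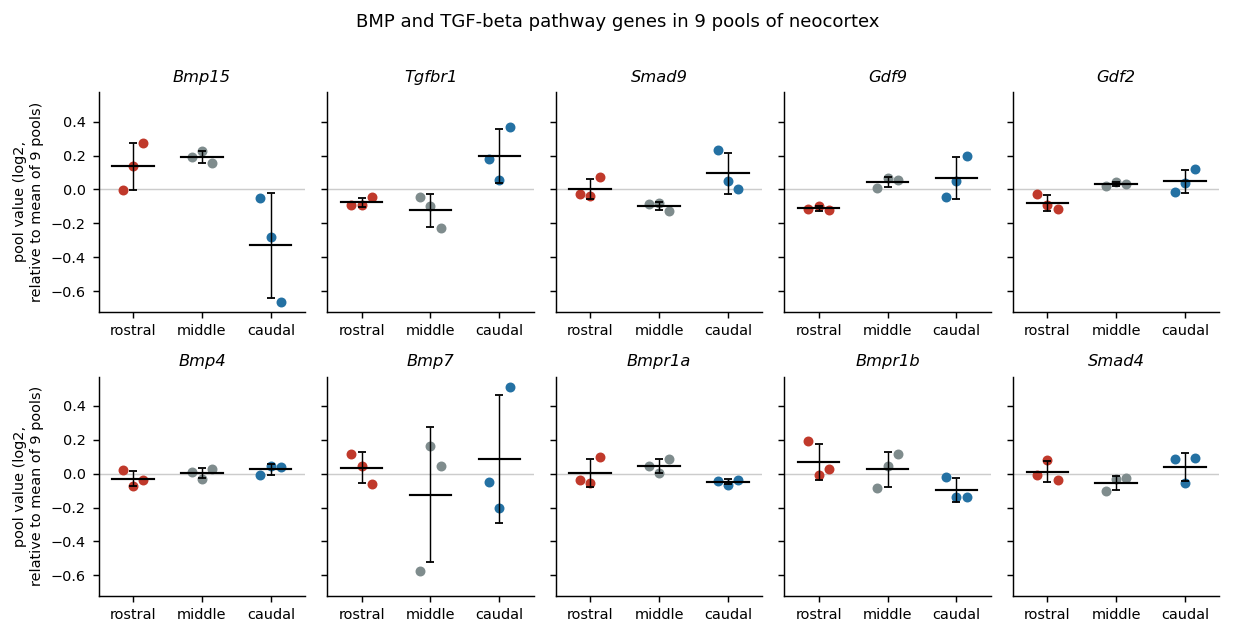
Pool values (y axis, log2 relative to the mean of 9 pools) of 10 members in rostral, middle and caudal pools (x axis). Points are pools in the order of replicates 1 to 3, horizontal lines the mean and bars 1 SD of the 3 pools, and the 3 caudal pools of Bmp15 lie lowest while those of Tgfbr1 lie highest.

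Among the growth differentiation factors, Gdf5, a ligand of joints and cartilage, stayed within -0.05 to 0.12 over the 9 pools. Gdf7, known from the roof plate and dorsal midline, was measured on 16 arrays and had -0.18, 0.29 and -0.08 in rostral pools, 0.18, -0.12 and 0.07 in middle pools, and -0.16, 0.00 and 0.00 in caudal pools, with no separation of regions. Gdf11, which limits neuron number in some neural tissues, had 0.24, -0.02 and -0.07 in rostral pools, -0.23, -0.09 and -0.24 in middle pools, and 0.29, 0.35 and -0.23 in caudal pools. Its rostral pools all lay above its middle pools, with a difference of 0.24 ± 0.16 in rostral against middle (unadjusted p = 0.19) and -0.33 ± 0.16 in middle against caudal (unadjusted p = 0.0846).

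Gdf6 had the widest range of all members. Its values were 0.04, -0.14 and -0.68 in rostral pools, -0.74, 0.21 and 0.27 in middle pools, and -0.25, 1.22 and 0.06 in caudal pools. The difference of -0.60 ± 0.44 in rostral against caudal (unadjusted p = 0.213, 1.52-fold) became -0.18 without caudal replicate 2 and -0.96 without caudal replicate 1, and pools of all regions overlapped. Gdf1 and Gdf3, ligands of early embryonic axis formation, had differences in rostral against caudal of -0.09 and 0.11. Gdf1 shares a transcript with a ceramide synthase gene, which its probe may also measure.

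The 2 TGF-beta ligands that could be tested did not separate the regions. Tgfb1 had -0.12, -0.02 and -0.01 in rostral pools, -0.10, 0.03 and 0.08 in middle pools, and 0.10, -0.10 and 0.16 in caudal pools. Tgfb3 had -0.12, 0.01 and 0.00 in rostral pools, -0.08, 0.01 and 0.14 in middle pools, and 0.09, -0.10 and 0.06 in caudal pools. Rostral replicate 1 was the lowest pool of both, as it was for 13.6% of members and 12.7% of all features. The differences in rostral against caudal were -0.10 ± 0.08 for Tgfb1, with a 95% interval from -0.30 to 0.09, and -0.05 ± 0.08 for Tgfb3, with an interval from -0.25 to 0.14.

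Of the inhibin and activin subunits, Inhba, which forms activin A, had 0.12, 0.12 and -0.18 in rostral pools, 0.16, 0.00 and 0.03 in middle pools, and -0.17, -0.06 and -0.02 in caudal pools. Its middle pools all lay above its caudal pools, by 0.14 ± 0.10 (unadjusted p = 0.183). Inhbe, a subunit known from liver, was measured on 16 arrays and spread from -0.65 to 0.72 over the pools. Its difference in rostral against middle, 0.37 ± 0.41, was the largest of any member in that comparison and had an unadjusted p of 0.396.

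Among the type I receptors, Tgfbr1, the signalling receptor of TGF-beta, had the lowest unadjusted p of any member. It was measured on 17 arrays and had -0.09, -0.09 and -0.04 in rostral pools, -0.04, -0.10 and -0.23 in middle pools, and 0.18, 0.05 and 0.37 in caudal pools. All 3 caudal pools lay above all 6 others. The difference was -0.28 ± 0.09 in rostral against caudal (unadjusted p = 0.0172, adjusted p = 0.441, 1.21-fold) and -0.32 ± 0.09 in middle against caudal (unadjusted p = 0.0081, adjusted p = 0.641, 1.25-fold). In rostral against middle it was 0.05 ± 0.09.

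The arrays behind Tgfbr1 were less even than its pools. Of 5 arrays with a rostral and a caudal pool, 3 gave a ratio below 0 and 2 above, from -1.38 to 0.17, and of 6 with a middle and a caudal pool 4 were below 0 and 2 above. The residual SD between arrays was 0.68, against 0.11 between pools of a region. Without 1 array the difference in rostral against caudal ranged from -0.42 to -0.01, and without caudal replicate 3 it was -0.13 (unadjusted p = 0.417). Its unadjusted p was over 0.05 without any 1 pool other than rostral replicate 3, and in 14 of 36 alternatives in middle against caudal, where the difference was -0.19 without rostral replicate 2. With the arrays as samples the unadjusted p was 0.184.

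**Figure D3:**
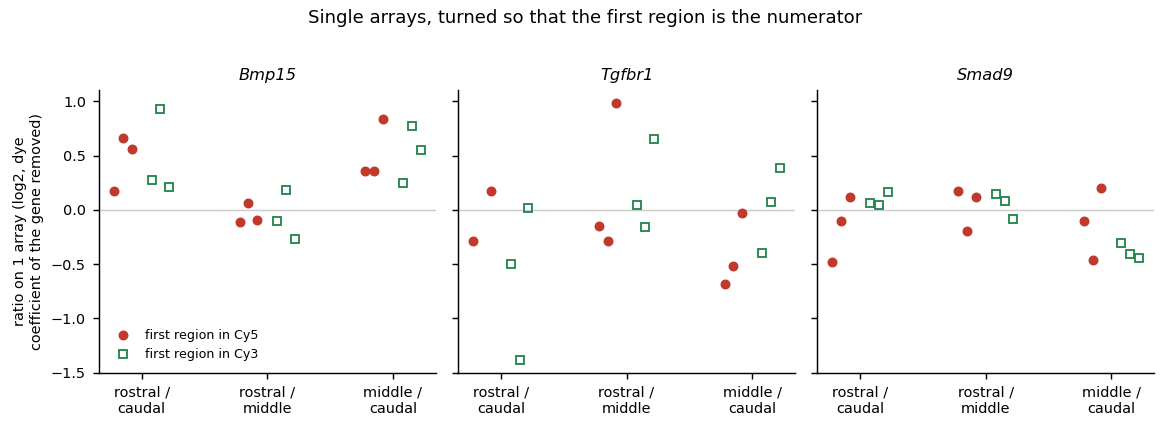
Ratios on single arrays (y axis, log2, with the gene's dye coefficient removed) of Bmp15, Tgfbr1 and Smad9 for the 3 pairs of regions (x axis), turned so that the first region is the numerator. Red points are arrays with the first region in Cy5 and open green squares those with it in Cy3, and all rostral over caudal and middle over caudal ratios of Bmp15 are above 0, whereas those of Tgfbr1 and Smad9 fall on both sides.

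The type I receptors of BMPs and activins had no unadjusted p under 0.05, though pools of single pairs of regions did not overlap. Bmpr1a, expressed by cortical progenitors, had -0.04, -0.05 and 0.10 in rostral pools, 0.05, 0.00 and 0.09 in middle pools, and -0.04, -0.07 and -0.04 in caudal pools, with a difference of 0.09 ± 0.06 in middle against caudal (unadjusted p = 0.138). All its middle pools lay above its caudal pools on this probe. On a further probe of Bmpr1a they overlapped, with a difference of -0.03 ± 0.22. Bmpr1b, its close relative, had 0.19, -0.01 and 0.03 in rostral pools, -0.09, 0.05 and 0.12 in middle pools, and -0.02, -0.14 and -0.14 in caudal pools. The rostral pools of Bmpr1b all lay above its caudal pools, by 0.17 ± 0.08 (unadjusted p = 0.0736, adjusted p = 0.706). Acvr1, a type I receptor for BMPs and activins, was measured on 17 arrays, spread from -0.46 to 0.27 and had a difference of -0.02 ± 0.21 in rostral against caudal. Acvr1b, the activin type I receptor, differed by 0.31 ± 0.23 with overlapping pools.

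Of the 3 type II receptors, Bmpr2 and Acvr2b varied little over the pools and Tgfbr2 varied widely. Bmpr2, the type II receptor dedicated to BMPs, had 0.03, 0.02 and 0.01 in rostral pools, -0.03, -0.03 and -0.01 in middle pools, and 0.08, -0.05 and -0.01 in caudal pools, and its interval in rostral against caudal ran from -0.10 to 0.13. Acvr2b, shared by activins and BMPs, had 0.02, -0.01 and 0.09 in rostral pools, 0.00, 0.07 and 0.00 in middle pools, and 0.04, -0.12 and -0.07 in caudal pools. These are among the narrowest bounds on the members' probe ratios, with SEs of 0.05 and 0.06. A further probe of Bmpr2 had a wider interval in rostral against caudal, from -0.29 to 0.22. Tgfbr2, which binds TGF-beta first, was measured on 17 arrays and spread from -0.52 to 0.82, with a difference of -0.22 ± 0.35 in rostral against caudal. Tgfbr3, a co-receptor that presents TGF-beta, had a difference of -0.20 ± 0.09 in middle against caudal (unadjusted p = 0.068).

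Among the receptor-activated SMADs, Smad9 alone had an unadjusted p under 0.05. Smad9 had -0.03, -0.04 and 0.07 in rostral pools, -0.09, -0.08 and -0.13 in middle pools, and 0.23, 0.05 and 0.01 in caudal pools. All 3 middle pools lay below the other 6. The difference was -0.19 ± 0.07 in middle against caudal (unadjusted p = 0.029, adjusted p = 0.941, 1.14-fold) and 0.10 ± 0.07 in rostral against middle (unadjusted p = 0.198). Of the 6 arrays with a middle and a caudal pool, 5 gave a ratio below 0. Without caudal replicate 1 the difference was -0.12 (unadjusted p = 0.123), and the unadjusted p was over 0.05 without any 1 of the middle or caudal pools.

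Smad2 and Smad4 varied little over the pools, and Smad6 varied most among the SMADs. Smad2 had 0.04, 0.01 and 0.04 in rostral pools, -0.03, -0.02 and -0.03 in middle pools, and 0.04, -0.08 and 0.03 in caudal pools. Smad4, the common partner of all receptor-activated SMADs, had -0.01, 0.08 and -0.04 in rostral pools, -0.10, -0.03 and -0.03 in middle pools, and 0.08, -0.06 and 0.09 in caudal pools. Neither gene had a pool further than 0.10 from the mean. The differences in rostral against caudal were 0.03 ± 0.05 for Smad2 and -0.03 ± 0.06 for Smad4. Smad3, of the TGF-beta branch, spread from -0.29 to 0.25 with a difference of 0.13 ± 0.13, and Smad5, of the BMP branch, from -0.09 to 0.19 with a difference of -0.09 ± 0.07. Smad6, the inhibitory SMAD that BMPs induce, spread from -0.49 to 0.56 with a difference of 0.18 ± 0.29.

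Of the antagonists, Chrd, which binds BMPs outside the cell, had 0.28, -0.17 and -0.14 in rostral pools, 0.51, 0.32 and -0.18 in middle pools, and -0.08, -0.42 and -0.13 in caudal pools. The difference in middle against caudal was 0.42 ± 0.21 (unadjusted p = 0.0792), with overlapping pools. Grem1, another BMP antagonist, spread from -0.58 to 0.35 and had the largest SD between arrays after Bmp2k, at 1.30. Fst, which binds activin, was even, with all pools between -0.11 and 0.10 and a difference of -0.02 ± 0.07 in rostral against caudal. Bambi, a pseudoreceptor without a kinase domain, was measured on 17 arrays, spread from -0.57 to 0.51 and had a difference of 0.31 ± 0.29. Fstl1, a secreted follistatin-like glycoprotein, differed by 0.03 ± 0.07.

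The rule also takes in 2 genes that are named for BMPs without being ligands. Bmp1, a protease that cuts Chrd and procollagen, had a difference of 0.11 ± 0.17 in rostral against caudal. Bmp2k, a kinase named for its induction by BMP2, had 0.42, 0.69 and -0.19 in rostral pools, 0.09, 0.06 and -0.18 in middle pools, and 0.44, -0.77 and -0.56 in caudal pools. Its difference was 0.60 ± 0.35 (unadjusted p = 0.125, 1.52-fold), and caudal replicate 1 lay among the rostral pools.

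For 5 members a further probe passed the filter, namely Bmp1, Bmp2, Bmpr1a, Bmpr2 and Tgfbr2. Both probes gave the same sign for 4 of 5 genes in rostral against caudal, for 3 of 5 in rostral against middle and for 4 of 5 in middle against caudal. The widest disagreement in rostral against caudal was in Bmp2, at -0.05 for the probe with values on all arrays and -0.44 for the other, which has values on 16 arrays (unadjusted p = 0.0742).

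The filter left out 7 members. Gdf10 had values on 12 arrays, Tgfb2 on 10, Inha on 10, Inhbb on 11, Inhbc on 4, Nog on 2 and Fstl3 on 11. Nog, an antagonist of BMPs, and Tgfb2 are therefore given no difference here. When no minimum was set, pool values could be estimated for Gdf10, Tgfb2 and Fstl3, and their unadjusted p was at least 0.34 in each comparison. Acvr2a, Smad1 and Smad7 were not analysed here, because no probe carries any of these symbols alone in the annotation.

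Other genes of the pathway were taken from a list of 60 ligands, extracellular regulators, intracellular regulators and target genes that the symbol rule does not cover, of which 43 could be tested. None passed. The list was chosen with earlier results of these data known, so its counts cannot show an excess over all features. In rostral against caudal, 2 of the 43 had an unadjusted p under 0.05 and were higher and 6 were lower, beside 4.17% and 3.74% of all features. In rostral against middle there were 1 higher and 3 lower (Rgmb higher, and Chrdl1, Neo1 and Fkbp1a lower), beside 2.16% and 3.09% of features. There the unadjusted p was over 0.05 in 3 of 36 alternatives for Rgmb, 19 of 37 for Chrdl1, 21 of 37 for Neo1 and 6 of 37 for Fkbp1a. In middle against caudal there were 0 higher and 4 lower (Ltbp1, Rgmb, Neo1 and Dcn), beside 3.08% and 1.78%. There the unadjusted p was over 0.05 in 22 of 36 alternatives for Rgmb and 11 of 37 for Neo1, and in none for Ltbp1 and Dcn. The list's median difference was -0.05 in rostral against caudal, -0.04 in rostral against middle and -0.03 in middle against caudal.

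Ltbp1, which holds latent TGF-beta in the extracellular matrix, had the largest of these differences. Its pool values were -0.31, -0.67 and -0.34 in rostral pools, -0.06, -0.32 and -0.23 in middle pools, and 0.65, 0.76 and 0.52 in caudal pools. All 3 caudal pools lay above all others, by more than the spread within any region. The difference was -1.08 ± 0.12 in rostral against caudal (adjusted p = 0.0571) and -0.85 ± 0.12 in middle against caudal (adjusted p = 0.394). Restricted to features with values on all 18 arrays, the adjusted p in rostral against caudal was 0.0152. Over all 37 alternatives the adjusted p of Ltbp1 in this comparison was at most 0.363, and its unadjusted p at most 0.000993.

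The remaining genes that were lower in rostral against caudal at an unadjusted p under 0.05 had smaller differences. Neo1, a receptor for netrins and for the BMP co-receptors of the RGM family, differed by -0.35 ± 0.07 (adjusted p = 0.193). Dcn, a matrix proteoglycan that binds TGF-beta, differed by -0.39 ± 0.09 (adjusted p = 0.233), and Fkbp1a, which holds type I receptors inactive, by -0.25 ± 0.07 (adjusted p = 0.317). Id3, a target gene of BMP signalling, had -0.06, -0.13 and -0.20 in rostral pools, -0.08, 0.01 and 0.10 in middle pools, and 0.09, 0.05 and 0.23 in caudal pools, a difference of -0.26 ± 0.07 (adjusted p = 0.373). Amh, a ligand of gonads, differed by -0.14 ± 0.05 (adjusted p = 0.497).

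On the higher side were Ltbp4, a relative of Ltbp1, at 0.23 ± 0.06 (adjusted p = 0.34) and Pmepa1, a target and inhibitor of TGF-beta signalling, at 0.13 ± 0.04 (adjusted p = 0.442). For the other Id and Msx genes of the list, known BMP targets, the fitted differences were smaller than that of Id3. Id1 differed by -0.03 ± 0.09, Id2 by 0.09 ± 0.07, Msx1 by -0.05 ± 0.05 and Msx2 by 0.01 ± 0.12 in rostral against caudal.

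**Figure D4:**
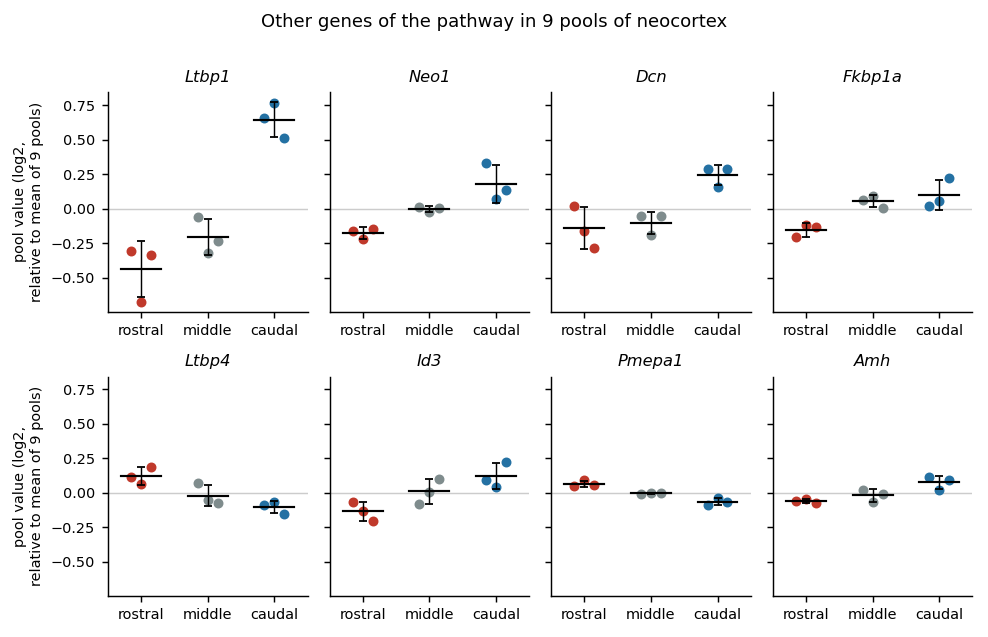
Pool values (y axis, log2 relative to the mean of 9 pools) of 8 further pathway genes with an unadjusted p under 0.05 in rostral against caudal, in rostral, middle and caudal pools (x axis). Points are pools, lines the mean and bars 1 SD of the 3 pools, and the caudal pools of Ltbp1, at 0.52 to 0.76, stand above all its rostral and middle pools.

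Marker genes of other cells moved to different degrees between the same pools. Of 20 genes of meninges and mesenchyme, 17 could be tested, and 14 of them were below 0 in rostral against caudal, with a median of -0.15. The median over this list ranged from -0.13 to 0.04 in rostral pools, from -0.06 to 0.04 in middle pools and from 0.01 to 0.12 in caudal pools. The lowest p in the list was that of Ptgds, a prostaglandin synthase of the meninges, at -0.66 ± 0.13 (adjusted p = 0.188), and Dcn is in this list too. The part of meningeal cells in the values of Ltbp1, Dcn and the members was not tested.

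The hem and vessel lists, which mark known sources and targets of BMPs, differed less in rostral against caudal. Of 18 genes of cortical hem and choroid plexus, 15 could be tested, with 7 above and 8 below 0 and a median of -0.01. Wnt8b, a marker of the medial cortical edge, was lowest in middle pools, at 0.43 ± 0.07 in rostral against middle (adjusted p = 0.445) and -0.35 ± 0.07 in middle against caudal (adjusted p = 0.413). Of 15 endothelial genes, 14 could be tested, with a median of -0.06. For ventral telencephalon the median was 0.02 over 12 genes, for red blood cells -0.17 over 7 genes, and for cortical progenitors and neurons -0.03 over 21 genes, of which 1 passed in rostral against caudal (Vim, an intermediate filament of radial glia, at -0.51 ± 0.05, adjusted p = 0.0389).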

How the data were processed

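Two-colour arrays of 9 pools of mouse neocortex were used. The values are log2 ratios of the 2 dyes, 1 per probe and array, as deposited by the authors in a table of 21998 probes. How ratios were scanned, corrected and normalized was not given in the sources used here. Per the labels, each array holds 1 pool in Cy3 and another in Cy5. Gene symbols came from the platform annotation, and all 51 members' gene IDs were found in the RefSeq table. The 232 control spots were left out and capped ratios, at a ratio of 100000, were set to missing. Each array was centred on its median.

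A feature needed values on at least 12 arrays and on 2 arrays of each pool. Least squares gave each feature a value per pool and a dye coefficient from its arrays. Regions were then compared over these 9 pool values with lmFit and eBayes of limma 3.58.1 in R 4.3.3 (6 residual and 1.26 prior degrees of freedom), two-sided, with Benjamini-Hochberg adjustment over 18525 features at 0.05. The fit was tested on simulated data, and the outcome is not given here. The number of arrays limits the precision, and so does the number of pools. Alternatives covered centring, capped ratios, filters, the dye term, the sample unit, scaling, the variance prior, further probes, the replicate block, and leaving out each pool and each array.

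Named with values were the members with an unadjusted p under 0.05, a list of core pathway genes, the 3 largest differences of each comparison, and the members left out by the filter. A few further members are given by their difference. The members and lists were chosen with earlier results of these data known.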

Additional observations from a re-analysis of the deposited data

How the results depend on the processing

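Over 10 alternatives of processing, 9 left-out pools and 18 left-out arrays, no difference of a member or further pathway gene with an unadjusted p under 0.05 changed sign (marker genes and Nr2f1 were not refitted). The number of members that passed stayed at 0 in every comparison under all of these except with the arrays as samples, which treats arrays of 1 pool as independent. There 3 of 44 members passed in rostral against caudal, 2 in rostral against middle, 1 in middle against caudal and 3 for any region difference. Of 18525 features, 1325, 703 and 501 passed in the 3 comparisons, and those passing for any region difference were not counted. In that setting 4 members had an unadjusted p under 0.05 in rostral against middle and 5 in middle against caudal. Without centring, the median difference of all features became -0.07 in rostral against caudal, 0.10 in rostral against middle and -0.17 in middle against caudal. That of the members became -0.0925, 0.11 and -0.20, and 9 members had an unadjusted p under 0.05 in middle against caudal. With features on all 18 arrays only, 1 member had one in rostral against middle. The share of all features at an unadjusted p under 0.05 was not computed for the alternatives. The counts of such members here and below therefore have no background beside them.

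Deviations of same-numbered pools correlated between -0.43 and -0.06 across features in 9 pairs. Same-numbered pools never shared an array, so these correlations cannot show whether the pool numbers pair the samples. With the pool number as a replicate block, 2 members had an unadjusted p under 0.05 in rostral against caudal, against 4 without it, and 0 features passed. Leaving out 1 pool or array gave 1 to 5 such members in rostral against caudal, 0 to 2 in rostral against middle and 1 to 4 in middle against caudal. The lowest count in rostral against caudal came without caudal replicate 2 and without caudal replicate 3, and in middle against caudal without middle replicate 1 and without middle replicate 2. The 12 features that passed in rostral against caudal became 0 to 4 without a pool, 2 to 17 without an array, 46 among features on all 18 arrays, 7 with no minimum, and 0 without centring. The cause was not tested. Signal over background is not in the table, so its limit on single genes is unknown.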

Other observations

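The extreme pools of the members were unevenly spread. Caudal replicate 1 was the highest pool for 10 of 44 members (22.7%), against 15.4% of all features, and caudal replicate 2 was the lowest for 10 members (22.7%), against 12.4% of features. The middle region's mean lay between those of the ends for 18 members (40.9%), against 36.8% of features. Of the 44 members, 22 had all 9 pools within 0.2 of the mean on the log2 scale, and 12 had a pool more than 0.5 away.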
